A study of Mus musculus with 5 samples.

Results

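The Mir9-3 locus is a stretch of 60 kb of mouse chromosome 7 (build mm9) around 1 of the 3 mouse genes that encode the microRNA miR-9. Its members were the CpGs listed there outside CCGG, the site at which the restriction enzyme MspI cuts. The place was chosen on the difference between Fbxl10 T/T and WT cells in these same tables, so that difference is given as a description, and its calls stand only beside their background. Of 598336 CpGs outside CCGG listed in any of the 5 tables, 218 lay in the locus: 198 were listed in Fbxl10 T/T cells, 99 in Ring1B -/-, 103 in Eed -/-, 101 in Ezh2 -/- and 207 in WT cells, and 57 in all 5.

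DNA methylation was read by reduced representation bisulfite sequencing (RRBS), in which MspI fragments are sequenced after bisulfite has turned unmethylated cytosines into bases read as T, so that a C in a read stands for a methylated cytosine. There was 1 library each of mouse embryonic stem (ES) cells labelled Fbxl10 T/T, Ring1B -/-, Eed -/-, Ezh2 -/- and WT. Per the labels, the Fbxl10 T/T and WT cells were of strain C57BL/6J, grew in serum and leukemia inhibitory factor (LIF) on inactivated mouse embryonic fibroblasts that were depleted by plating, and were harvested at passage 17. The Ring1B -/-, Eed -/- and Ezh2 -/- cells grew in serum and LIF, and their labels name neither a strain, a passage nor feeder cells. The T allele is not described in the sources used here, whether a library came from 1 clone is not given there, and bisulfite reads give no check of the alleles, so genotypes are as labelled.

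FBXL10, also called KDM2B, is a protein with a CXXC zinc finger that binds unmethylated CpGs and brings a form of Polycomb repressive complex 1 (PRC1) to CpG islands. Ring1B is the ubiquitin ligase of PRC1, and Eed and Ezh2 are core subunits of Polycomb repressive complex 2 (PRC2), of which Ezh2 is the histone methyltransferase. CpG islands are normally unmethylated, and DNA methylation at a promoter goes with silence of its gene. miR-9 is abundant in the developing brain, where it acts in neural progenitors and neurons, and Polycomb complexes are known to occupy many genes of neural development in ES cells.

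The mature products of the locus are shown because the 3 miR-9 genes share them, with the seed (bases 2 to 8) in capitals. The hairpin and the 300 bases around each annotated start of its host gene Mir9-3hg (250 before and 50 after the start) are shown because the values that follow come from some of their CpGs. Here capitals mark every CpG, whether or not it was read and whether or not it lies in CCGG. These sequences are RefSeq's, from tables of build GRCm38.p6, and all run 5′ to 3′ on the + strand.
mmu-miR-9-5p: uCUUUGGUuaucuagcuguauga
mmu-miR-9-3p: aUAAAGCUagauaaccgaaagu
Mir9-3 hairpin: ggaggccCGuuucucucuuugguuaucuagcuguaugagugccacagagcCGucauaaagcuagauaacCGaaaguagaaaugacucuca
Mir9-3hg promoter 1: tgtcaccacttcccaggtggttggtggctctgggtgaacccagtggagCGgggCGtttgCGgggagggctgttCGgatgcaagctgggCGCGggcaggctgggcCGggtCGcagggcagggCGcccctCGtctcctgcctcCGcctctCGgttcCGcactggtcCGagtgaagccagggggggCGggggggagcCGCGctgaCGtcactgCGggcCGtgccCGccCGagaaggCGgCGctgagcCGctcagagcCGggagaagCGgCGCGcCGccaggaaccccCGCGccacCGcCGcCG
Mir9-3hg promoter 2: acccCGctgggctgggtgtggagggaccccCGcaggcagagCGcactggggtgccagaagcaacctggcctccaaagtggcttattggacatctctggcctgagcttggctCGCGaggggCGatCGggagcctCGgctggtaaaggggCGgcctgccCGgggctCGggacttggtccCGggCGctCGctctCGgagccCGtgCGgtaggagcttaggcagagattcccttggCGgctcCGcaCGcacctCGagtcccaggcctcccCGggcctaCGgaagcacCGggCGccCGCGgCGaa

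Both seeds were found, among 1738 mature mouse sequences, at Mir9-1, Mir9-2 and Mir9-3 only. The letters around the cytosines of the tables spelled each of these 3 genomic sequences at 1 place of the locus with no mismatch, over 16 letters of the hairpin, 111 of promoter 1 and 77 of promoter 2. The hairpin thus lay at chr7:86650150-86650239 in mm9, promoter 1 at chr7:86644662-86644961 and promoter 2 at chr7:86660071-86660370. The first annotated start lay 5238 bases before the hairpin and the second 10171 bases after it, so of the annotated starts only the first lies upstream of the hairpin. Promoter 1 held 35 CpGs and promoter 2 held 28, against a median of 7 over the 32851 mouse promoters of this length, of which 6.95% and 14.2% hold at least as many. CG was found in 94.6% of those promoters and CCGG, which holds a CG, in 52.8%; both motifs read the same on the other strand. In RefSeq's gene order Mir9-3hg and Mir9-3 stand between Polg with the tRNA gene n-TRtcg5 and the predicted genes Gm51285 and Gm31740, followed by Rhcg. No annotation of build mm9 was used here, so exons and introns are not given.

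Depth set the precision. The tables held 27289499 reads at CpGs in Fbxl10 T/T cells, 1856964 in Ring1B -/-, 1939239 in Eed -/-, 1763598 in Ezh2 -/- and 42999787 in WT, each read being counted at every CpG it covers. The median CpG of the locus had a depth of 23 in Fbxl10 T/T cells, 3 in Ring1B -/-, 3 in Eed -/-, 2 in Ezh2 -/- and 46 in WT. The share of C at non-CpG cytosines, which holds unconverted bases, was 0.783% in Fbxl10 T/T cells, 1.97% in Ring1B -/-, 3.47% in Eed -/-, 2.33% in Ezh2 -/- and 0.517% in WT at the locus. Levels below are the percent of reads that show C, with 95% Wilson intervals in brackets, which cover counting error only and are too narrow because neighbouring CpGs share reads.

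Across the locus, methylation in Fbxl10 T/T cells stood far above that in the other 4 libraries. It was 55.7% (54.3 to 57.0; 2906 of 5219 reads) in Fbxl10 T/T cells, 11.1% (8.37 to 14.5; 45 of 407) in Ring1B -/-, 12.6% (9.84 to 15.9; 58 of 462) in Eed -/-, 14.5% (11.1 to 18.7; 47 of 325) in Ezh2 -/- and 7.28% (6.79 to 7.80; 740 of 10171) in WT. Over all CpGs outside CCGG of each table the levels were 21.0% in Fbxl10 T/T cells, 12.8% in Ring1B -/-, 12.8% in Eed -/-, 11.3% in Ezh2 -/- and 13.6% in WT. The locus was thus above the whole table in Fbxl10 T/T and below it in WT.

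At the 57 CpGs listed in all 5 libraries the order was Fbxl10 T/T at 56.2% (54.3 to 58.1), Ezh2 -/- at 14.4% (10.7 to 19.1), Eed -/- at 13.9% (10.7 to 18.1), Ring1B -/- at 12.7% (9.47 to 16.8) and WT at 9.32% (8.54 to 10.2). The intervals of the 3 Polycomb mutants overlapped each other, and that of Ring1B -/- also overlapped that of WT. At the CpGs each Polycomb mutant shared with Fbxl10 T/T, weighted by the mutant's reads, Fbxl10 T/T stood at 56.4% against 11.9% in Ring1B -/-, at 55.9% against 12.7% in Eed -/- and at 55.7% against 14.8% in Ezh2 -/-. This difference is a description, since the Fbxl10 T/T values chose the locus.

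**Figure D1:**
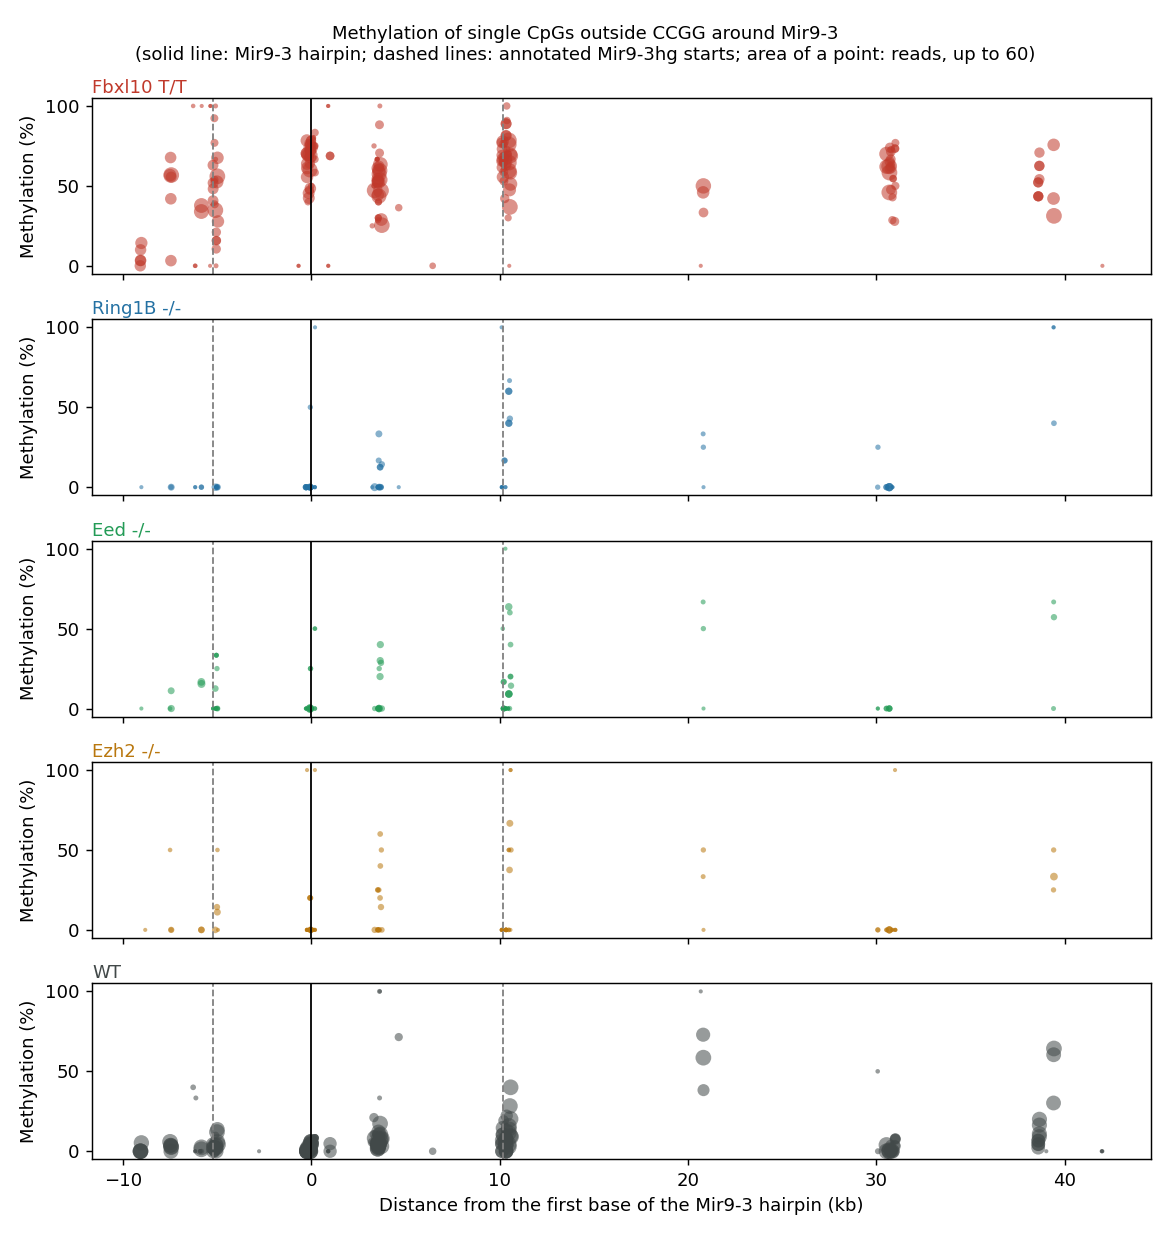
Each point is 1 CpG outside CCGG, by its distance in kb from the first base of the Mir9-3 hairpin (x axis) and its methylation in percent (y axis), with 1 panel per library and the area of a point standing for its reads, up to 60. The CpGs of Fbxl10 T/T lie mostly above 40% in clusters where those of WT lie near 0, and the points of the 3 Polycomb mutants are few and small.

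Of the 60 windows of 1 kb in the locus 19 held a CpG, and 12 had at least 5 CpGs and 30 reads in both Fbxl10 T/T and WT. All 12 were higher in Fbxl10 T/T, and 11 were higher by 20 percentage points or more. These 11 were called by the rule used for all windows of the genome, a gap of that size and an adjusted p (Fisher's exact test) under 0.05, by which 25.6% of 20312 windows were called higher and 2.68% lower. The contrast is the one that chose the locus, so the calls are no test of it and nothing is read from their count. The median difference was 47.8 points over the 12 windows and 0.31 points over all windows tested.

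In Fbxl10 T/T the 3 windows at the hairpin stood between 65.9% and 66.7%, level with that of the second start at 65.8%, where WT stood at 10.2%. In chr7:86649001-86650000, just before the hairpin, the level was 66.1% (60.3 to 71.4) in Fbxl10 T/T cells, 0% (0 to 9.41; 37 reads) in Ring1B -/-, 0 of 4 reads in Eed -/-, 1 of 7 in Ezh2 -/- and 0.327% (0.0897 to 1.18) in WT. In chr7:86650001-86651000, which holds the hairpin, it was 65.9% (62.2 to 69.5) in Fbxl10 T/T cells, 4.17% (1.43 to 11.5) in Ring1B -/-, 4.60% (1.80 to 11.2) in Eed -/-, 6.25% (2.46 to 15.0) in Ezh2 -/- and 2.64% (1.92 to 3.64) in WT. In the next window, chr7:86651001-86652000, it was 66.7% (50.3 to 79.8; 36 reads) in Fbxl10 T/T and 2.27% (0.625 to 7.91; 88 reads) in WT. In the window that holds the hairpin the 4 other libraries were thus all far below Fbxl10 T/T.

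In the hairpin itself 1 CpG outside CCGG was read, at base 86650157, which showed C in 6 of 8 reads in Fbxl10 T/T cells, 0 of 1 in Ring1B -/- and 0 of 14 in WT. Much of what was read beside it lay in the run chr7:86650047-86650146 (mm9), spelled here from the contexts of the tables with the CpGs outside CCGG in capitals.
upstream of Mir9-3: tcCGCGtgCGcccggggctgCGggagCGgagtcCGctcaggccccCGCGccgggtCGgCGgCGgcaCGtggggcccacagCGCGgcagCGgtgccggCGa
The 200 bases before the hairpin, which hold this run, stood at 64.7% (372 of 575 reads) in Fbxl10 T/T cells, 2.90% (2 of 69) in Ring1B -/-, 2.53% (2 of 79) in Eed -/-, 5.17% (3 of 58) in Ezh2 -/- and 2.50% (32 of 1281) in WT. All 4 other libraries lay far below Fbxl10 T/T there, and those of the 3 Polycomb mutants were close to that of WT.

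Promoter 1, around the annotated start upstream of the hairpin, stood at 51.4% (42.2 to 60.4; 57 of 111 reads) in Fbxl10 T/T and at 2% (0.780 to 5.03; 4 of 200) in WT. Of the Polycomb mutants only Eed -/- had reads there, with C in 0 of 3. The windows around this start were lower in Fbxl10 T/T than those at the hairpin. They stood at 46.8% in Fbxl10 T/T against 2.22% in WT in chr7:86644001-86645000, and at 42.3% in Fbxl10 T/T against 4.82% in WT in chr7:86645001-86646000. Further upstream, chr7:86642001-86643000 stood at 48.9% in Fbxl10 T/T against 3.29% in WT, with single CpGs between 3.23% and 67.7% in Fbxl10 T/T.

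The outermost upstream window was low in both libraries. In chr7:86641001-86642000, the level was 6.45% (3.54 to 11.5; 10 of 155 reads) in Fbxl10 T/T and 1.04% (0.354 to 3.01; 3 of 289) in WT. Downstream of the hairpin the levels stayed high: chr7:86653001-86654000 stood at 50.7% in Fbxl10 T/T against 6.97% in WT, and chr7:86680001-86681000 at 61.3% in Fbxl10 T/T against 0.770% in WT. In chr7:86681001-86682000 it was 52.8% in Fbxl10 T/T against 2.78% in WT, and in chr7:86688001-86689000 it was 54.0% in Fbxl10 T/T against 9.44% in WT.

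**Figure D2:**
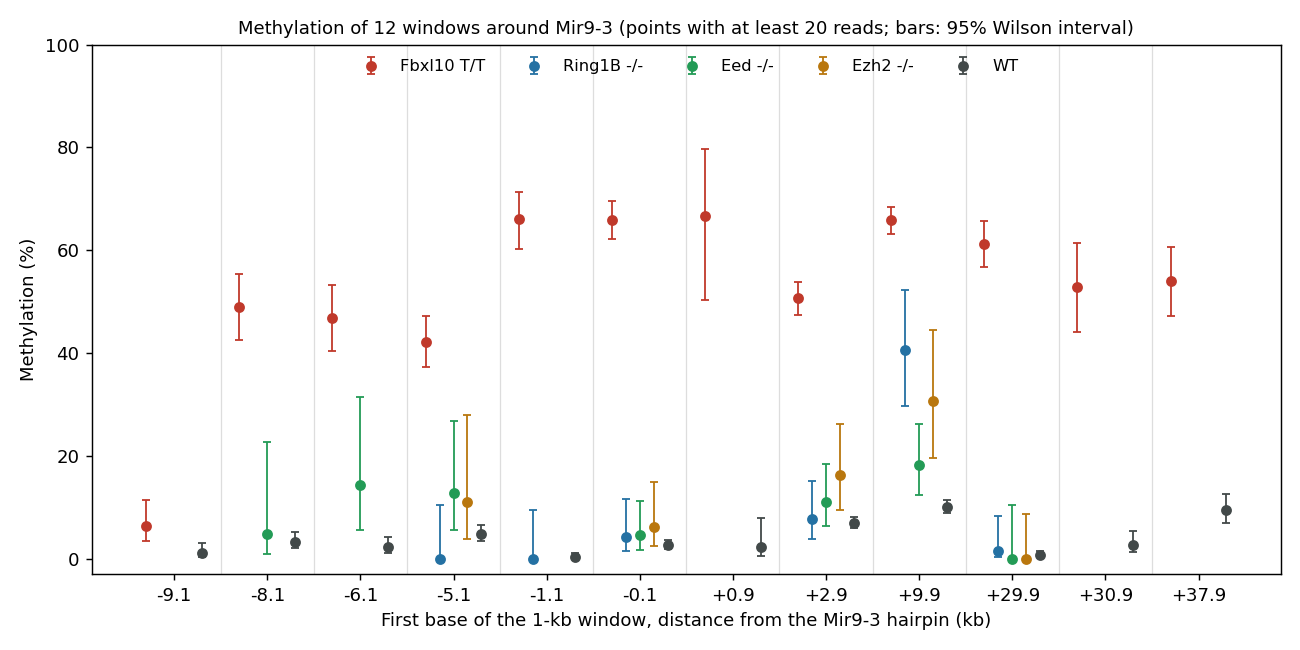
Methylation in percent (y axis) of the 12 windows, in order along the chromosome by the distance of the window's first base from the hairpin (x axis, kb, not to scale), for each library with at least 20 reads in the window. Bars are 95% Wilson intervals. Fbxl10 T/T lies between 42.3% and 66.7% in all but the first window, and each of the 3 Polycomb mutants has its highest level plotted in the window of the second start, at 9.9 kb.

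Summed over the 7 windows below the minimum of CpGs or reads, Fbxl10 T/T was not higher than WT. Together they stood at 43.6% (282 reads) in Fbxl10 T/T and at 54.2% in WT. In Fbxl10 T/T, 139 reads came from the window that starts at 86689001 and 117 from that at 86670001. No other of these windows held more than 11, so the sum says little about them. The best covered, chr7:86689001-86690000 with 3 CpGs in Fbxl10 T/T, stood at 46.0% (38.0 to 54.3) in Fbxl10 T/T cells, 57.1% (4 of 7 reads) in Ring1B -/-, 46.2% (6 of 13) in Eed -/-, 35% (7 of 20) in Ezh2 -/- and 54.1% (47.3 to 60.8) in WT. In chr7:86670001-86671000, with 4 CpGs, the level was 45.3% in Fbxl10 T/T against 58.8% in WT. In both of these windows WT was already methylated and Fbxl10 T/T was not higher. The 20 kb before the locus held 3 CpGs outside CCGG, at 73.3% in Fbxl10 T/T, 87.5% in Ezh2 -/- (8 reads) and 93.9% in WT. The 20 kb after it held 5, at 37.7% (61 reads) in Fbxl10 T/T and 14.1% (71 reads) in WT.

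At 153 single CpGs of the 12 windows with at least 10 reads in both libraries, 152 were higher in Fbxl10 T/T and none was lower. This count, and the counts by level that follow, have no share over all CpGs beside them. They come from the contrast that chose the locus, so nothing is read from them. The median of the 153 CpGs stood at 61.1% (quartiles 47.2 and 70) in Fbxl10 T/T and at 3.70% in WT. In Fbxl10 T/T 108 CpGs were above 50% and 4 below 10%, while in WT none was above 50%, 132 were below 10% and 43 were at 0. The 3 highest in Fbxl10 T/T were the CpGs at 86660522, with C in 11 of 11 reads against 8 of 36 in WT, at 86644998, with 12 of 13 against 1 of 30 in WT, and at 86660530, with 10 of 11 against 5 of 37 in WT. The 3 lowest, at 86641064, 86642692 and 86641077, had C in 0 of 30, 1 of 31 and 1 of 30 reads in Fbxl10 T/T and in 0 of 58, 0 of 54 and 0 of 58 in WT. At most CpGs of Fbxl10 T/T some reads were thus methylated and others were not. By the base after the CpG, the level in Fbxl10 T/T ran from 53.5% before C to 61.9% before G, and in WT from 4.04% before G to 6.82% before A. As medians over CpGs the order in Fbxl10 T/T was another, from 51.8% before T to 70% before A.

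**Figure D3:**
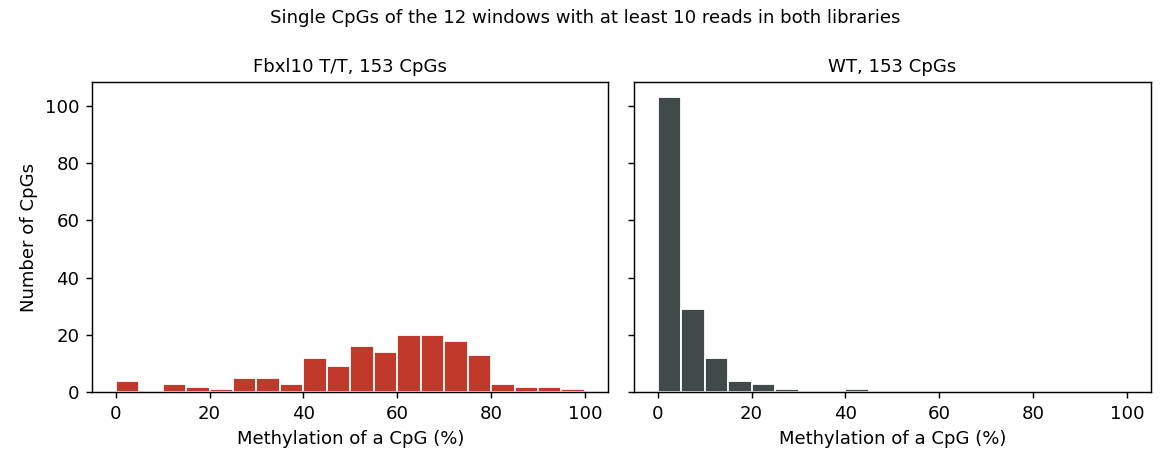
Number of CpGs (y axis) by methylation in percent (x axis, bins of 5 points) for the 153 CpGs with at least 10 reads in both libraries, Fbxl10 T/T left and WT right. Fbxl10 T/T spreads around a median of 61.1%, and WT piles up next to 0 with a median of 3.70%.

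For the Polycomb mutants the question was whether loss of a PRC1 or PRC2 subunit goes with methylation at the same CpGs. The contrast that chose the locus did not hold their reads, although it held those of WT, and all 4 comparisons share the WT library. The locus was also chosen with earlier results of these data known, so these comparisons are not independent of the choice. WT was low at the locus, which leaves more room for a higher mutant level than for a lower one. Each window with at least 5 CpGs and 30 reads in both libraries was compared by a two-sided Fisher's exact test, with Benjamini-Hochberg adjustment over all such windows of the genome. The test compares the reads of 2 libraries and carries no spread between cultures, so it does not test the genotype. Strain, feeder cells, passage and depth differ, or may differ, between these libraries and WT and cannot be told apart from genotype. The share of C at non-CpG cytosines of the locus, given above, was also higher in these 3 libraries than in WT, and its part in the differences was not tested.

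In Ring1B -/- cells the window of the second Mir9-3hg start rose. Of 6 windows tested in the locus 1 was called higher, against a background of 1.33% of 8723 windows, and 0 lower, against 0.562%. It was chr7:86660001-86661000, which holds the second start, at 40.6% (28 of 69 reads at 15 CpGs) in Ring1B -/- against 10.2% (226 of 2223) in WT, a difference of 30.4 points (95% interval 19.5 to 42.3; Fisher's exact test, adjusted p = 1.33e-08). Neighbouring CpGs share reads, and with 1 CpG per 50 bases, an alternative chosen after seeing the data, the difference was 25.7 points on 31 reads of Ring1B -/- (Fisher's exact test, adjusted p = 0.0254). With WT thinned to the reads of the mutant, in 1 random draw, it was 31.9 points (Fisher's exact test, adjusted p = 0.00253). Over all alternatives that could test the window the adjusted p (Fisher's exact test) ran up to 0.0254. The other 5 windows differed by -4.82 to 1.52 points, with adjusted p of 0.762 or more, and their intervals reached at most 9.08 points above WT.

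In Ezh2 -/- cells the same window rose and in Eed -/- cells it missed the threshold. In Ezh2 -/- 1 of 4 windows tested was called higher, against a background of 0.269% of 8552, and 0 lower, against 0.854%. The window chr7:86660001-86661000 stood at 30.6% (15 of 49 reads) in Ezh2 -/- against 10.2% in WT, a difference of 20.4 points (9.27 to 34.4; Fisher's exact test, adjusted p = 0.00341). In Eed -/- 0 of 5 windows were called by Fisher's exact test, against a background of 0.372% of 9146 called higher and 0.678% lower. The second-start window stood at 18.3% (22 of 120 reads) in Eed -/- against 10.2% in WT, a difference of 8.17 points (2.12 to 16.1; Fisher's exact test, adjusted p = 0.0647). The window chr7:86645001-86646000, just after the first start, stood at 12.8% (5 of 39) in Eed -/- against 4.82% in WT (Fisher's exact test, adjusted p = 0.209). In Ezh2 -/- the window chr7:86653001-86654000 stood at 16.2% (12 of 74) against 6.97% in WT, a difference of 9.25 points (2.45 to 19.3; Fisher's exact test, adjusted p = 0.0932). The differences between the 3 mutants were not tested. The call in Ezh2 -/- was lost with WT thinned to the mutant's 49 reads in 1 random draw, at the same difference of 20.4 points (Fisher's exact test, adjusted p = 0.797). It was also lost at a threshold of 30 points, and some alternatives could not test the window. In Eed -/- it was called under 1 alternative, 1 CpG per 50 bases, at 26.2 points on 38 reads (Fisher's exact test, adjusted p = 0.0146). Under the others that could test it the difference in Eed -/- stayed below 20 points. Its adjusted p there ran from 0.0134 with CCGG kept to 0.652 with WT thinned (Fisher's exact test).

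**Figure D4:**
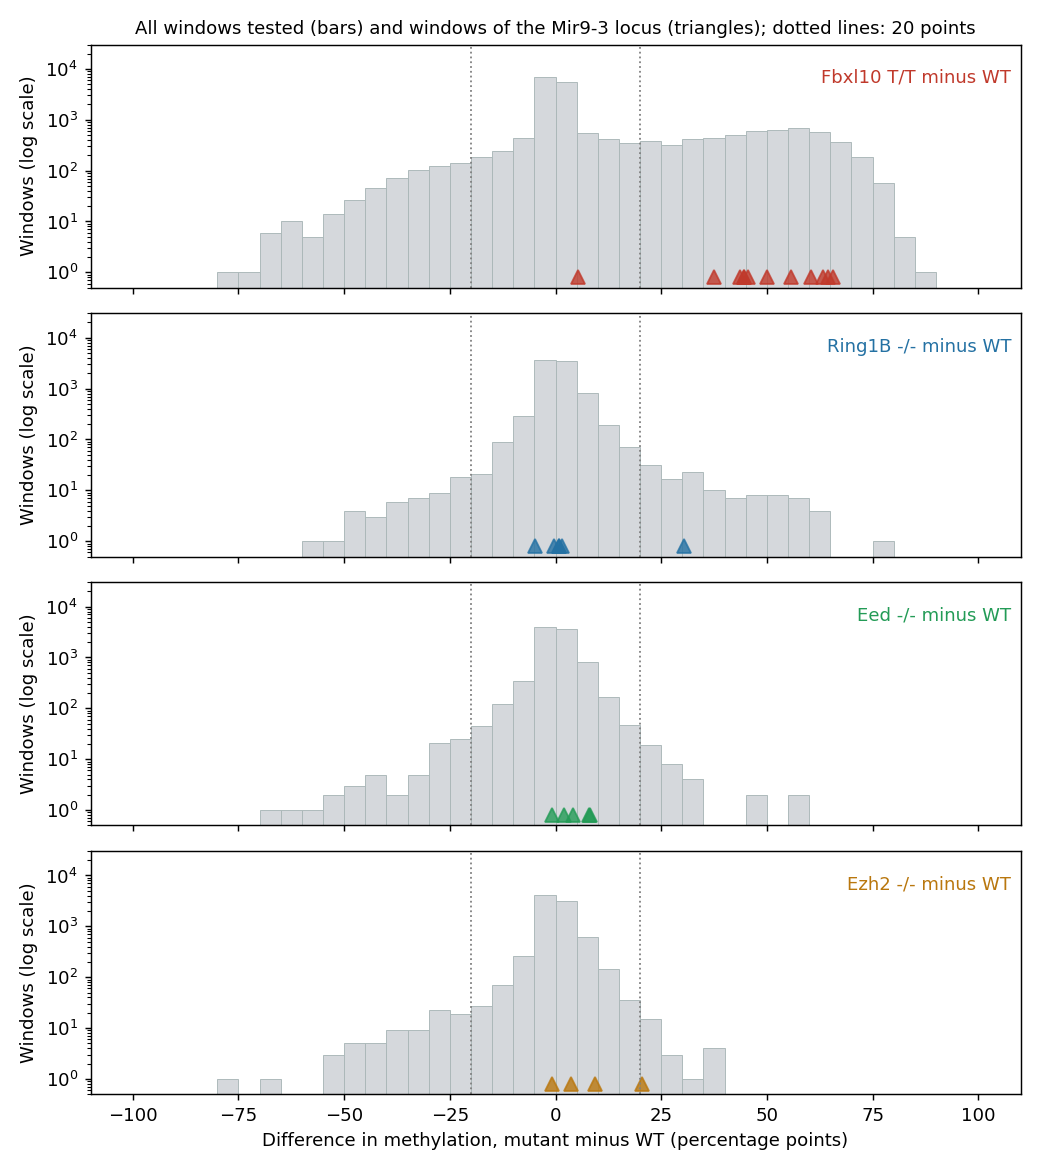
Number of windows (y axis, log scale) by the difference in methylation, mutant minus WT, in percentage points (x axis, bins of 5), over all windows tested in each of the 4 comparisons. Triangles are the windows of the Mir9-3 locus. In Fbxl10 T/T 11 of 12 triangles lie beyond 20 points, in Ring1B -/- 1 of 6, in Eed -/- 0 of 5 and in Ezh2 -/- 1 of 4.

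Within the second-start window the reads of the Polycomb mutants were unevenly spread. Promoter 2 itself stood at 67.6% (207 of 306 reads) in Fbxl10 T/T cells, 1 of 5 reads in Ring1B -/-, 3 of 29 in Eed -/-, 0 of 5 in Ezh2 -/- and 6.87% (32 of 466) in WT. Split 300 bases after the start, a split chosen after the values were seen, the near side stood at 69.6% in Fbxl10 T/T cells, 15.8% (3 of 19) in Ring1B -/-, 8.89% (4 of 45) in Eed -/-, 0% (0 of 17) in Ezh2 -/- and 5.99% (68 of 1135) in WT. The far side stood at 61.8% in Fbxl10 T/T cells, 50% (25 of 50) in Ring1B -/-, 24% (18 of 75) in Eed -/-, 46.9% (15 of 32) in Ezh2 -/- and 14.5% (158 of 1088) in WT. In all 3 Polycomb mutants, and in WT, the far side was the higher, while in Fbxl10 T/T the near side was.

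The run chr7:86660595-86660660 (mm9), which spans this split and holds the CpGs that gave most reads of Ring1B -/-, was spelled from the contexts of the tables with the CpGs outside CCGG in capitals.
downstream of the second start: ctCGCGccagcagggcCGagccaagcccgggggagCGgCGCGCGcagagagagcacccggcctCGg
Its 4 neighbouring CpGs at bases 86660630 to 86660637 stood at 69.6% (220 of 316 reads) in Fbxl10 T/T cells, 50% (20 of 40) in Ring1B -/-, 22.7% (10 of 44) in Eed -/-, 25% (2 of 8) in Ezh2 -/- and 8.63% (48 of 556) in WT. They gave 58.0% of the reads of Ring1B -/- in the window, at 10 reads per CpG. The rest of the window stood at 64.6% in Fbxl10 T/T cells, 27.6% (8 of 29) in Ring1B -/-, 15.8% (12 of 76) in Eed -/-, 31.7% (13 of 41) in Ezh2 -/- and 10.7% (178 of 1667) in WT. At the CpGs of the window that Ring1B -/- covered, weighted by its reads, WT stood at 9.43%.

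**Figure D5:**
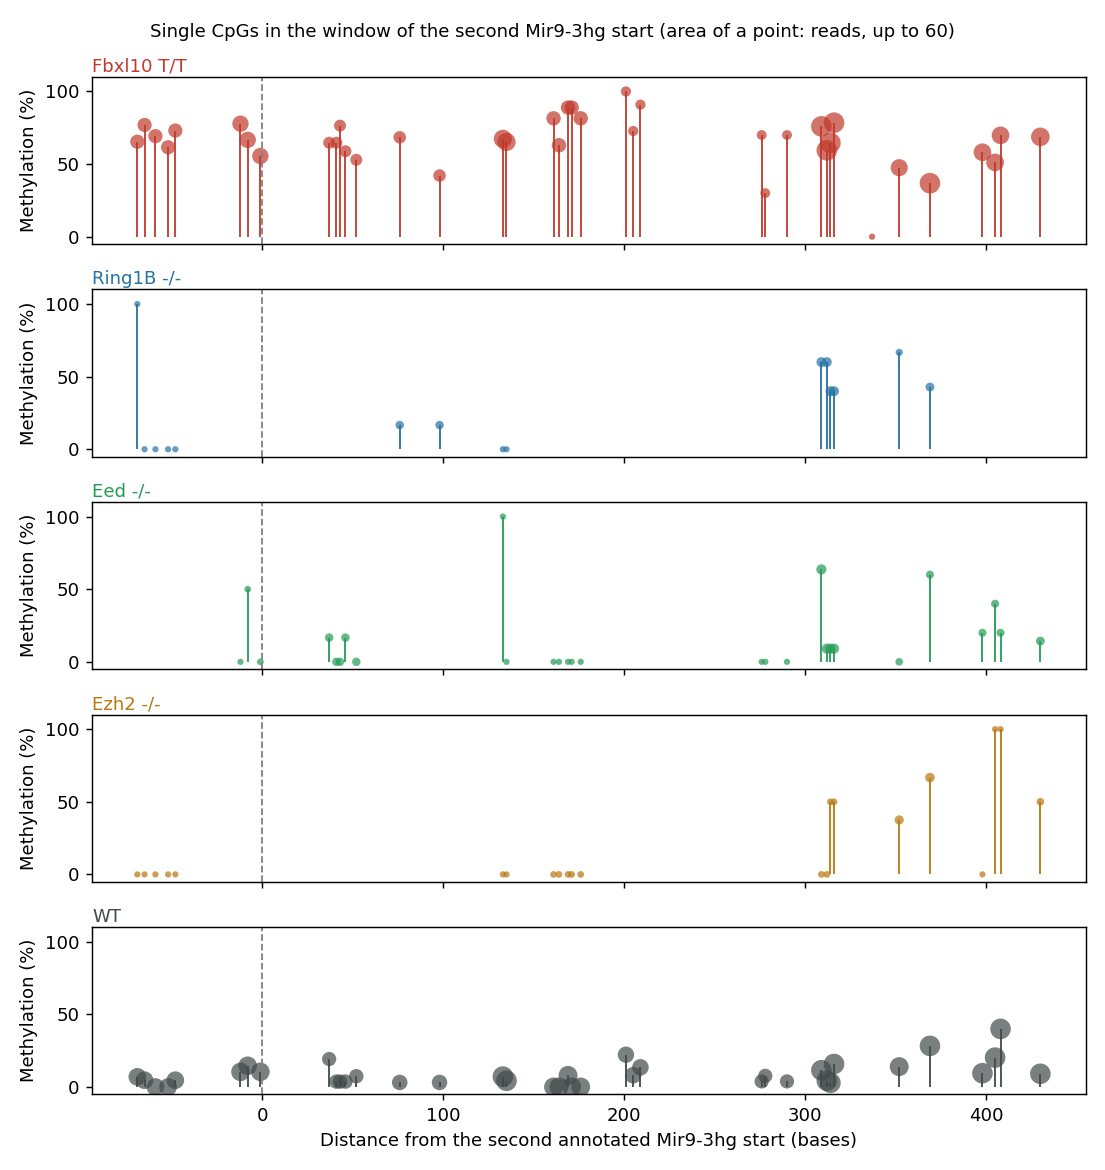
Each stem is 1 CpG outside CCGG in the window of the second start, by its distance in bases from that start (x axis) and its methylation in percent (y axis), with 1 panel per library and the area of a point standing for its reads, up to 60. In Fbxl10 T/T nearly all CpGs are methylated, and in the Polycomb mutants most methylated CpGs lie more than 300 bases after the start. That distance was chosen after the values were seen, and most reads of these mutants lie there too. WT was also higher there, at 14.5% against 5.99% nearer the start.

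In the other 11 windows covered in Fbxl10 T/T and WT, the Polycomb mutants were lower than at the second start where they were read. The minimum of 5 CpGs and 30 reads was met by 5 of these 11 windows in Ring1B -/-, 4 in Eed -/- and 3 in Ezh2 -/-. No Polycomb mutant had reads in chr7:86651001-86652000 or chr7:86688001-86689000, and Eed -/- had none in chr7:86681001-86682000. At the CpGs of the 11 windows shared with WT, weighted by the mutant's reads, Ring1B -/- stood at 3.77% against 4.75% in WT. Eed -/- stood at 8.20% against 4.50% in WT, and Ezh2 -/- at 8.91% against 4.84% in WT. At the 49 CpGs shared by all 5 libraries outside the second-start window, which include CpGs already methylated in WT, the levels were 54.6% in Fbxl10 T/T cells, 5.70% (3.49 to 9.20) in Ring1B -/-, 11.7% (8.46 to 15.98) in Eed -/-, 11.4% (7.95 to 16.1) in Ezh2 -/- and 9.02% (8.19 to 9.93) in WT. At the 8 shared CpGs inside it they were 62.6% in Fbxl10 T/T cells, 48.1% (35.1 to 61.3) in Ring1B -/-, 25.5% (15.8 to 38.3) in Eed -/-, 40.7% (24.5 to 59.3) in Ezh2 -/- and 10.8% (8.85 to 13.04) in WT.

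CpGs inside CCGG, left out above, are the cut sites of MspI. In the locus they stood at 60.3% in Fbxl10 T/T cells, 40.8% in Ring1B -/-, 33.6% in Eed -/-, 39.6% in Ezh2 -/- and 28.6% in WT. Fbxl10 T/T was again the highest and WT the lowest of the 5 libraries. Over all CpGs inside CCGG of each table the levels were 48.0% in Fbxl10 T/T cells, 50.7% in Ring1B -/-, 50.7% in Eed -/-, 47.5% in Ezh2 -/- and 46.3% in WT. These are far above the levels outside CCGG in every library. The cause was not tested, so levels inside CCGG cannot be set beside those outside it.

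The other miR-9 genes could be reached only through their host genes. Within 1 kb of the annotated start of Gm3764, which holds Mir9-1 on chromosome 3, the level was 58.9% (73 of 124 reads) in Fbxl10 T/T cells, 0 of 8 reads in Ring1B -/-, 0 of 15 in Eed -/-, 1 of 11 in Ezh2 -/- and 1.97% (5 of 254) in WT. Both windows of 1 kb that could be tested within 5 kb of this start were called higher in Fbxl10 T/T, as were 25.6% of all windows tested. For C130071C03Rik, which holds Mir9-2 on chromosome 13, only the first annotated start could be placed. Its promoters 2 and 3, which lie nearer to Mir9-2, could not. Within 1 kb of the first start C was seen in 3 of 7 reads in Fbxl10 T/T cells, 0 of 2 in Ring1B -/- and 0 of 11 in WT, too few for a level.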

How the data were processed

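RRBS of 5 mouse ES cell libraries was used, 1 per genotype. Per the submitters' processing notes, BSMAP 2.74 and build mm9 were used; trimming, duplicate removal and filters are not given in the sources used here. The deposited counts are reads per cytosine that show C, and that show C or T, per the file headers. The expected counts deposited beside them are the C or T reads as corrected by the authors for variants read on the other strand; they served as an alternative only.

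CpGs were taken from the + strand rows whose context letters show C followed by G, without those in CCGG, on the 19 autosomes and X. Each mutant was compared with WT. A level is summed C reads over summed reads in consecutive 1-kb windows. Windows with at least 5 CpGs and 30 reads in both libraries were tested with Fisher's exact test, adjusted by Benjamini-Hochberg over all windows. They were called at 20 points with an adjusted p under 0.05. The test was tried on simulated data with each CpG drawn apart from its neighbours. That trial therefore leaves out the reads that neighbouring CpGs share. Python 3.11.15, numpy 2.4.6, pandas 2.3.3, scipy 1.17.1 and numba 0.67.0 were used. Intervals are Wilson's and, for differences, Newcombe's. Named windows meet the same minimum in Fbxl10 T/T and WT; named CpGs are the 3 highest and 3 lowest in Fbxl10 T/T with at least 10 reads in both. RefSeq sequences were placed in mm9 by matching the letters of the 5-base contexts, with no conversion of coordinates. The locus, the lists and the tests were chosen with earlier results of these data known.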

Additional observations from a re-analysis of the deposited data

How the results depend on the processing

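The alternatives for CpGs were a mean over CpGs, minimums of 5 and 10 reads per CpG, CpGs listed in all 5 libraries and CCGG kept. Others were the corrected counts, shifted windows, WT thinned, 100 reads per window and other thresholds. WT was thinned in 1 random draw, and other draws were not made. An alternative of 1 CpG per 50 bases was added after seeing the data. The locus difference of Fbxl10 T/T was 48.4 points, against 46.9 at CpGs of all 5 libraries, 42.7 with CCGG kept and 43.7 with 1 CpG per 50 bases; its 11 called windows became 4 of 4 under the first and last of these. In Ring1B -/- the locus difference was 3.78 points, against 13.6 as a mean over CpGs, 11.3 at 10 reads per CpG (both on 11 CpGs and 126 reads), 8.09 with CCGG kept and 1.56 with 1 CpG per 50 bases; its second-start window was called under every alternative that could test it, with an adjusted p of up to 0.0254. In Eed -/- it was 5.28 points, against 8.93 as a mean, and 1 window was called with 1 CpG per 50 bases. In Ezh2 -/- it was 7.19 points, reversed to -10.3 as a mean and -3.33 at 10 reads per CpG (3 CpGs each), and its count of 1 called window became 0 with WT thinned and at 30 points, and also at 5 reads per CpG, at CpGs of all 5 libraries and with 1 CpG per 50 bases, where the second-start window had too few CpGs or reads to be tested. The cause of these shifts was not tested.

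Over the genome, windows called higher in Fbxl10 T/T numbered 5194 of 20312 tested. They were 2240 of 9986 at CpGs of all 5 libraries, 2676 of 11275 with 1 CpG per 50 bases and 7022 of 35184 with CCGG kept. Ring1B -/- had 116 of 8723, and from 8 of 1073 to 482 of 13055 over the alternatives. Eed -/- had 34 of 9146, and from 4 of 2311 to 233 of 9146. Ezh2 -/- had 23 of 8552, and from 0 of 744 to 194 of 12717. The number tested differed between most alternatives, so the counts alone cannot be compared. Ring1B -/- and Ezh2 -/- gave no window at the locus as a mean, at 10 reads per CpG or at 100 reads per window. With a median of 2 to 3 reads per CpG in the Polycomb mutants, intervals of the differences that were not called reached up to 21.9 points. No paired analysis was possible because each genotype has 1 library; leaving out a library was not possible for the same reason.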
